A study of Mus musculus with 9 samples.

Results

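The genes described here present peptides to T cells through the major histocompatibility complex (MHC), and 10 of them were chosen by symbol, not by their values, from the 24756 genes of the count table. 6 belong to the class I route: the heavy chains H2-K1 and H2-D1, the light chain B2m, the peptide transporter subunits Tap1 and Tap2, and tapasin (Tapbp). The other 4 belong to the class II route: the invariant chain Cd74 and the class II chains H2-Aa, H2-Ab1 and H2-Eb1. All 6 class I genes but only 1 class II gene, H2-Ab1, had enough counts to be tested, so 7 of the 10 stand among the 10215 genes tested.

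RNA levels were read with QuantSeq, a kit that sequences a short stretch near the 3' end of each polyadenylated transcript, in a mouse acute myeloid leukaemia line. The line came from murine foetal liver cells transduced with a pair of retroviral vectors, and the mouse strain is not given in the labels used here. Every group carried both vectors: MSCV-Luc2-IRES-MLL-AF9, which makes luciferase and the leukaemic fusion MLL-AF9 constitutively, and TRE-tight-DsRED-IRES-FLT3-ITD, which makes a red fluorescent protein and the constitutively active receptor kinase FLT3-ITD only while doxycycline is present. Cells washed free of doxycycline were collected after 24 h (OFF24) or 48 h (OFF48), and cells kept in 1 µg/mL doxycycline were the control (ON), with 3 libraries in each group. All data come from this 1 line, and as the labels do not tie replicates to separate cultures, the p-values rest on a spread between samples that may be technical.

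Class I molecules display peptides cut from proteins inside the cell and are read by CD8+ T cells. The peptides are made by the proteasome, pumped into the endoplasmic reticulum by TAP, and loaded with the help of tapasin onto a heavy chain paired with beta-2-microglobulin. Class II molecules display peptides from taken-up proteins to CD4+ T cells: the invariant chain fills the groove of the alpha and beta chains until proteases of the endosome cut it and H2-DM exchanges the remnant for a peptide. Class II is typical of B cells, dendritic cells and activated macrophages, and its transcription depends on the co-activator CIITA, while the related NLRC5 serves class I genes.

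Of the 10 genes, 8 lie within the MHC on chromosome 17 of GRCm38 (mm10), and positions are those of GENCODE M21. H2-K1 spans chr17:33996017-34000347 on the minus strand and H2-D1 spans chr17:35262730-35267499 on the plus strand. Tap1 (chr17:34187553-34197225) and Tap2 (chr17:34203527-34216321), both on the plus strand, lie between them, and Tapbp (chr17:33915899-33929292, plus) lies on the other side of H2-K1. Between the heavy chains also lie H2-Ab1 (chr17:34257689-34269419, plus), H2-Aa (chr17:34282744-34287823, minus) and H2-Eb1 (chr17:34305867-34316674, plus). B2m lies apart, at chr2:122147686-122153083 on the plus strand.

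The promoters of H2-K1, H2-D1 and Tapbp are shown because these 3 class I genes behaved differently after doxycycline was withdrawn. Each runs from 250 bases before to 50 bases after the transcript start in RefSeq (GRCm38.p6), 5′ to 3′ on the gene's own strand. The regions are chr17:34000298-34000597 (minus strand) for H2-K1, chr17:35262844-35263143 (plus strand) for H2-D1 and chr17:33919228-33919527 (plus strand) for Tapbp. Capitals mark matches, on either strand, to 4 strings of letters, settled after the promoters were read: GGGNNTTCC, a form of the site bound by NF-kB, TTTCNNTT, the core of the interferon response element, TGACG, the core of the cAMP response element, and CCAAT, the box bound by NF-Y. None of the matches in these 3 promoters overlap.
H2-K1: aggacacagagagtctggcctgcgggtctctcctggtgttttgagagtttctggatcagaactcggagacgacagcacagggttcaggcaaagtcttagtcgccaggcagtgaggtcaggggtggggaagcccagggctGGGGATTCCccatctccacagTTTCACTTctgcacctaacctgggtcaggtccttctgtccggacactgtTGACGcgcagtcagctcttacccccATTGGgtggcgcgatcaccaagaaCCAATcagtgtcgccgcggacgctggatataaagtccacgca
H2-D1: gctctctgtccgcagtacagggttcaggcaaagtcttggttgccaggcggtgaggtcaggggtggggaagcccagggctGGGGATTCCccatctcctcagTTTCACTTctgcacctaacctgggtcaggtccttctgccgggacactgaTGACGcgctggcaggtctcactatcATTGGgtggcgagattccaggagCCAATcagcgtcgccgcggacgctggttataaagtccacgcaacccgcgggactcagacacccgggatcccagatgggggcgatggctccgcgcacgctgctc
Tapbp: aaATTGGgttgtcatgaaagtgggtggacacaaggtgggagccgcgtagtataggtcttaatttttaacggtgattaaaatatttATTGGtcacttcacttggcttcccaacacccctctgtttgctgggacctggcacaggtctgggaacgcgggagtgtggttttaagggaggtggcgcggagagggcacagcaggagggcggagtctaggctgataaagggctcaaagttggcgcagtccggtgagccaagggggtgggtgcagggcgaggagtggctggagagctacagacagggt

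The H2-K1 and H2-D1 promoters aligned over 228 columns with 206 identities (90.4%), and both held the same matches in the same order. In H2-K1 the first bases of these matches lay at -111 (NF-kB), -90 (interferon response), -41 (cAMP response), -16 and 8 (CCAAT) from the RefSeq start, which is 0. In H2-D1 they lay at -171, -150, -101, -76 and -53. The RefSeq starts of these genes are set at different places in the matching letters, which shifts every position. The Tapbp promoter held 2 CCAAT matches, at -248 and -165, and none of the other 3 strings. Of 32544 RefSeq promoters of this length, 1903 (5.85%) held the NF-kB string, 23.9% the interferon core, 20.9% the cAMP response core and 37.4% CCAAT. A match is a description of letters and does not show binding. Promoters of 7 of the 10 genes were taken from the RefSeq table, and those of Tap2, H2-Ab1 and Cd74 were not.

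The libraries held between 1329296 counts (OFF48 replicate 2) and 4038456 counts (ON replicate 2). Levels are CPM, counts relative to the library total, scaled by the TMM method, with the SD over n = 3 libraries, and a count of 0 in a library allows up to 3 counts, or 0.737 to 2.25 CPM. No molecular identifiers mark PCR copies in these tables, and such limits cover counting error only. Log2 fold changes carry an approximate SE and a p-value from edgeR's quasi-likelihood test, adjusted by Benjamini-Hochberg over all 10215 genes, and a gene is said to rise or fall where that p is under 0.05. A 3' count scales with transcript number and not with length, and levels of different genes are not compared. In bulk samples fewer expressing cells and less RNA per cell cannot be told apart.

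At 24 h none of the 7 tested genes passed the test, while 35.3% of all tested genes did, 17.8% higher and 17.4% lower. At 48 h 3 of the 7 passed: H2-K1 and H2-Ab1 fell and Tapbp rose. Of all tested genes 47.4% passed at 48 h, 23.4% higher and 23.9% lower. The same 3 genes differed between 48 h and 24 h, in the same directions, beside 21.1% of all tested genes, 9.99% higher and 11.2% lower. Both comparisons with ON share the ON libraries, so they are not independent of each other. The median log2 fold change of the 7 genes was 0.02 at 24 h and -0.12 at 48 h, beside 0.03 and 0.01 over all tested genes. For the 6 class I genes it was -0.01 at 24 h and -0.11 at 48 h.

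**Figure D1:**
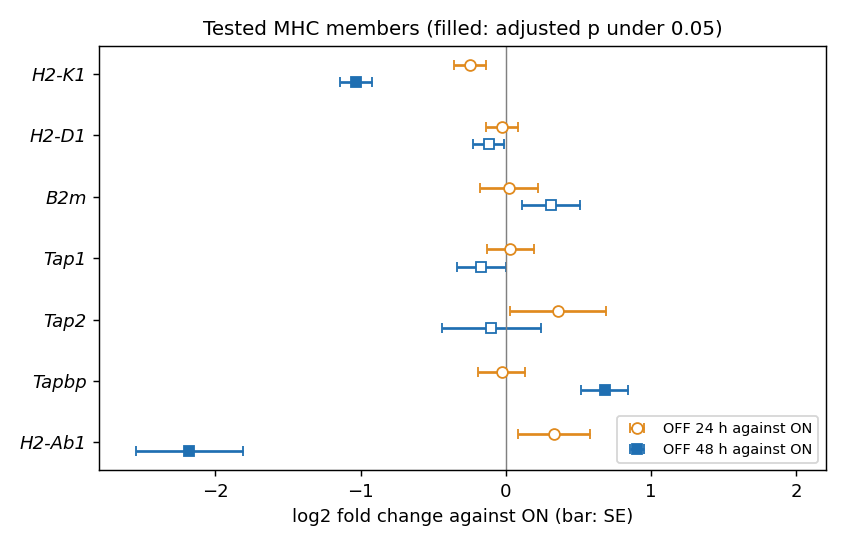
Log2 fold change against ON (x axis, bars ± SE) of the 7 tested genes at 24 h (circles) and 48 h (squares), with filled symbols where the adjusted p was under 0.05. No 24 h symbol is filled, while H2-K1 (-1.03), H2-Ab1 (-2.18) and Tapbp (0.68) are filled at 48 h.

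H2-K1, a classical class I heavy chain that binds the peptide, fell to 0.488 of its ON level by 48 h. It had 446, 438 and 471 CPM in the ON libraries, 334, 413 and 395 CPM at 24 h, and 237, 238 and 190 CPM at 48 h. Every 48 h library lay below every 24 h library, and every 24 h library below every ON library. The mean was 221 ± 27.2 CPM in OFF48 and 452 ± 17.2 CPM in ON, a log2 fold change of -1.03 ± 0.11 (edgeR adjusted p = 4e-07). At 24 h it was 381 ± 41.7 CPM, with a log2 fold change of -0.25 ± 0.11 against ON that missed the threshold (edgeR adjusted p = 0.0885, unadjusted p = 0.0369). H2-K1 was the only one of the 7 genes at an unadjusted p under 0.05 at 24 h, beside 44.7% of all tested genes, and the only one whose OFF24 and ON libraries did not overlap, beside 48.9%. DESeq2, limma-voom and limma on the authors' log2 table each called 0 of the 7 at 24 h. H2-K1 itself passed at 24 h under 5 of 20 alternative settings. Between 48 h and 24 h it fell by 0.79 ± 0.11 on the log2 scale (edgeR adjusted p = 5.02e-05).

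H2-D1, the other classical heavy chain measured, did not pass the test in any comparison. Its levels were 256, 295 and 289 CPM in ON, 253, 267 and 303 CPM at 24 h, and 278, 261 and 236 CPM at 48 h. All 3 groups overlapped. The mean was 258 ± 21.2 CPM in OFF48 and 280 ± 21.1 CPM in ON, with a log2 fold change of -0.12 ± 0.11 (edgeR adjusted p = 0.382). At 24 h the log2 fold change was -0.03 (edgeR adjusted p = 0.853). The symbol H2-L had the same counts as H2-D1 in all 9 libraries, so the reads of H2-D1 were counted for both symbols.

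The counts of H2-K1 over those of H2-D1, a ratio within each library chosen after the values were seen, compare the change of the 2 heavy chains free of library scaling. The ratio was 1.74, 1.48 and 1.63 in ON, 1.32, 1.55 and 1.3 at 24 h, and 0.851, 0.911 and 0.807 at 48 h. All 48 h libraries lay below all others, which overlapped each other. The mean log2 ratio was -0.23 ± 0.09 in OFF48 and 0.69 ± 0.12 in ON, a difference of -0.92 (exact two-sided permutation test, p = 0.1, the smallest that 3 against 3 libraries allow). It was 0.47 ± 0.14 in OFF24, differing from ON by -0.22 (exact two-sided permutation test, p = 0.2). At least 1 annotated coding transcript of H2-K1 shares at least 100 of its last 400 bases with an H2-D1 transcript at 95% identity or more, and with transcripts of 6 further genes, among them H2-Q1, H2-Q7, H2-T22 and H2-T23. How reads that map to several places were counted is not given in the sources used here, so the split of reads between these 2 heavy chains is uncertain, and its part in the ratio was not tested.

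**Figure D2:**
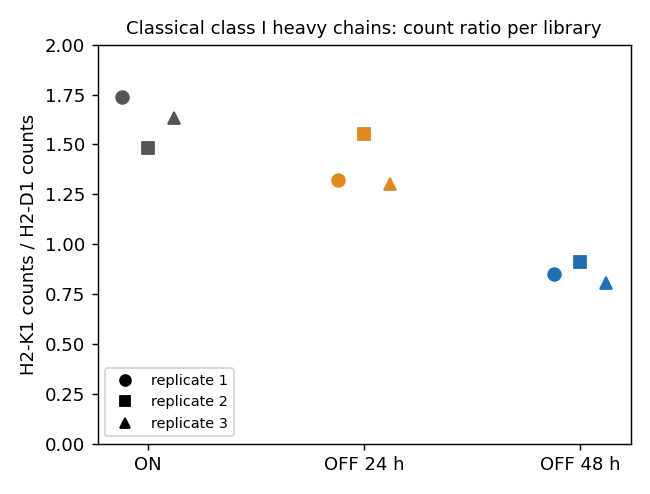
Counts of H2-K1 divided by counts of H2-D1 in each of the 9 libraries (y axis, linear from 0, one symbol per replicate number), by group. The 48 h libraries sit between 0.807 and 0.911 and the others between 1.3 and 1.74.

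B2m, the light chain without which class I heavy chains do not reach the surface, did not pass the test. It had 171, 256 and 173 CPM in ON, 184, 222 and 202 CPM at 24 h, and 205, 339 and 214 CPM at 48 h. The replicate numbered 2 was the highest in each group, and the groups overlapped. The mean was 253 ± 74.8 CPM in OFF48 and 200 ± 48.8 CPM in ON, with a log2 fold change of 0.31 ± 0.20 (edgeR adjusted p = 0.221). At 24 h the log2 fold change was 0.02 ± 0.20 (edgeR adjusted p = 0.958). With the replicate number as a block, B2m passed at 48 h against ON (log2 0.32, edgeR adjusted p = 0.00907), being higher in OFF48 in all 3 same-numbered pairs. Single libraries also change this result: without ON replicate 2 the 48 h log2 fold change was 0.53 and passed (edgeR adjusted p = 0.0246), and without OFF48 replicate 2 it was 0.07 (edgeR adjusted p = 0.747). With both left out, an alternative chosen after seeing the data, it was 0.28 (edgeR adjusted p = 0.0339).

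Neither subunit of the peptide transporter passed the test. Tap1 had 23.7, 20.6 and 22.5 CPM in ON, 23, 24.2 and 21.1 CPM at 24 h, and 17.1, 21.7 and 21.3 CPM at 48 h. Its log2 fold change was 0.03 at 24 h (edgeR adjusted p = 0.902) and -0.17 at 48 h (edgeR adjusted p = 0.428), with groups that overlapped. Tap2, the other subunit, varied widely within groups. It had 163, 304 and 179 CPM in ON, 197, 315 and 320 CPM at 24 h, and 147, 286 and 186 CPM at 48 h. The high libraries were replicate 2 of every group and replicate 3 at 24 h. The mean of Tap2 was 277 ± 69.5 CPM in OFF24 and 215 ± 77.0 CPM in ON (log2 0.36 ± 0.33, edgeR adjusted p = 0.438), and 206 ± 71.7 CPM in OFF48 (log2 -0.10 ± 0.34 against ON, edgeR adjusted p = 0.844). With ON replicate 2 and OFF48 replicate 2 both left out, Tap2 passed at 24 h (log2 0.69, edgeR adjusted p = 0.012). Tap2 overlaps antisense genes in the annotation, and as the strand setting of the counting is not given, reads of the strands cannot be told apart there. These antisense genes reach to chr17:34205449 and chr17:34214459, and Tap2 itself to chr17:34216321. Yet at least 1 coding Tap2 transcript matches the antisense gene Gm20496 within its last 400 bases, over 140 bases at 100% identity.

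Tapbp, whose product tapasin bridges TAP and the empty heavy chain, rose at 48 h. It had 91.1, 107 and 88.7 CPM in ON, 74.4, 118 and 87.3 CPM at 24 h, and 135, 190 and 143 CPM at 48 h. All 48 h libraries lay above all others, while the 24 h and ON libraries overlapped. The mean was 156 ± 29.9 CPM in OFF48 and 95.7 ± 10.1 CPM in ON, a 1.61-fold level (log2 0.68 ± 0.16, edgeR adjusted p = 0.00182). In OFF24 it was 93.2 ± 22.4 CPM, with a log2 fold change of -0.03 against ON (edgeR adjusted p = 0.889), and OFF48 stood 0.72 ± 0.16 above OFF24 on the log2 scale (edgeR adjusted p = 0.00386). Part of at least 1 Tapbp transcript end also lies in the antisense gene Gm19412, so reads from that end carry the same doubt about strand. Gm19412 reaches only to chr17:33920485, while Tapbp reaches to chr17:33929292. Which transcript ends gave the reads was not tested. An exon of Tapbp also overlaps Zbtb22, a gene on the same strand with 1427 counts in all.

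**Figure D3:**
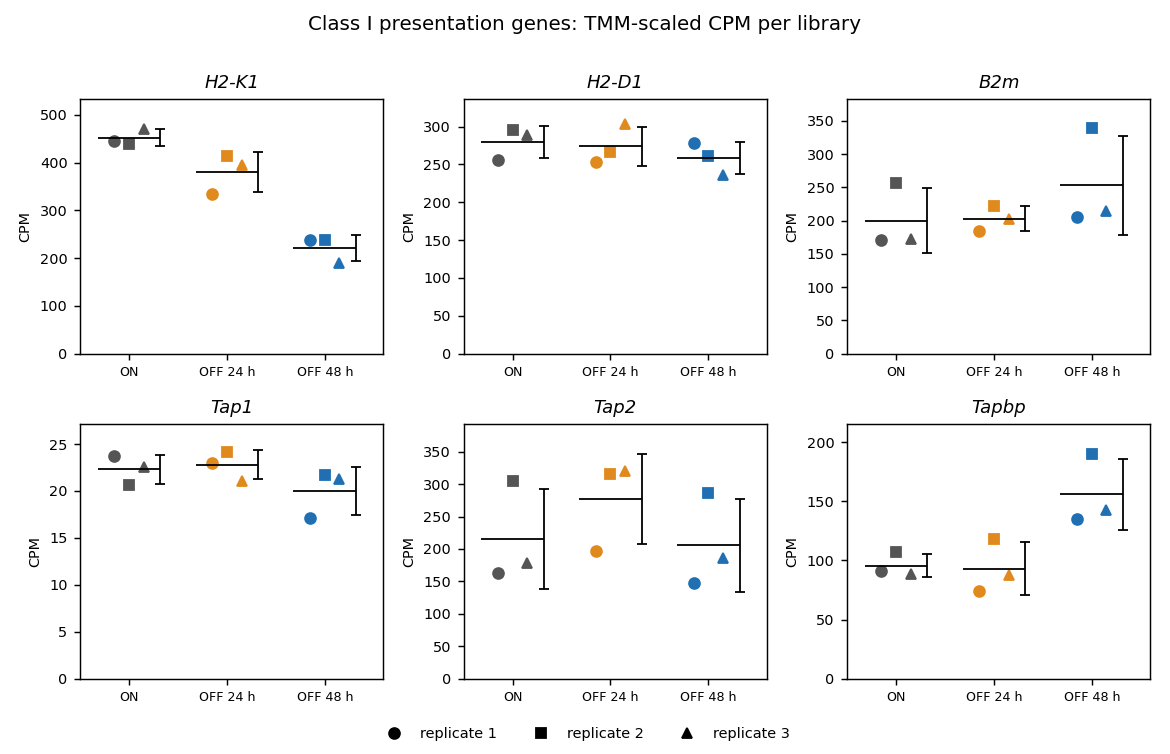
TMM-scaled CPM (y axes, linear from 0) of the 6 class I genes in each library, by group, with a line at the group mean and a bar of ± SD (n = 3). H2-K1 is lowest and Tapbp highest at 48 h with no overlap, and the square of replicate 2 is high for B2m and Tap2 in ON and OFF48.

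Summed over the 6 class I genes, the level was 1270 ± 140 CPM in ON, 1250 ± 162 CPM at 24 h and 1110 ± 192 CPM at 48 h, and the groups overlapped. Class II genes together came to 11 ± 3.69 CPM in ON, 13.7 ± 1.78 CPM at 24 h and 2.27 ± 0.667 CPM at 48 h, and here every 48 h library lay below every other. Nearly all of the class II sum was H2-Ab1.

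H2-Ab1, the beta chain of the class II molecule I-A, fell at 48 h to 0.221 of its ON level. It had 59, 30 and 26 counts in ON, 34, 47 and 38 counts at 24 h, and 7, 2 and 9 counts at 48 h. These are 15, 7.37 and 9.30 CPM in ON, 14.2, 14.8 and 11.3 CPM at 24 h, and 2.35, 1.5 and 2.62 CPM at 48 h. The 48 h libraries lay below all others, while the 24 h and ON libraries overlapped. The mean was 2.16 ± 0.586 CPM in OFF48 and 10.6 ± 3.99 CPM in ON (log2 -2.18 ± 0.37, edgeR adjusted p = 6.68e-05). In OFF24 it was 13.4 ± 1.85 CPM, with a log2 fold change of 0.33 ± 0.25 against ON (edgeR adjusted p = 0.327), and OFF48 fell by 2.51 ± 0.36 below OFF24 on the log2 scale (edgeR adjusted p = 4.98e-05). The 3 genes that passed at 48 h are also the only ones of the 7 whose OFF48 libraries did not overlap ON, or OFF24, against 52.5% and 38% of all tested genes. With 18 counts in OFF48 in all, the exact 95% Poisson interval of its pooled level, which covers counting error only, was 1.38 to 3.67 CPM.

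The other 3 class II genes were at the limit of detection in every group. H2-Aa, the alpha chain that pairs with H2-Ab1 in I-A, had 2 counts in ON, 0 at 24 h and 0 at 48 h, each summed over 3 libraries. H2-Eb1, the beta chain of I-E, had 1 count in ON, 2 at 24 h and 0 at 48 h. Cd74, the invariant chain, had 1 count in ON, 0 at 24 h and 1 at 48 h. The upper ends of the exact 95% Poisson intervals lay between 0.413 and 0.809 CPM for these genes and groups. No difference between groups was detectable for them at this depth, and no fold change is given. None of these 3 genes, nor H2-Ab1, shares its last 400 bases with another gene by the criterion above.

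**Figure D4:**
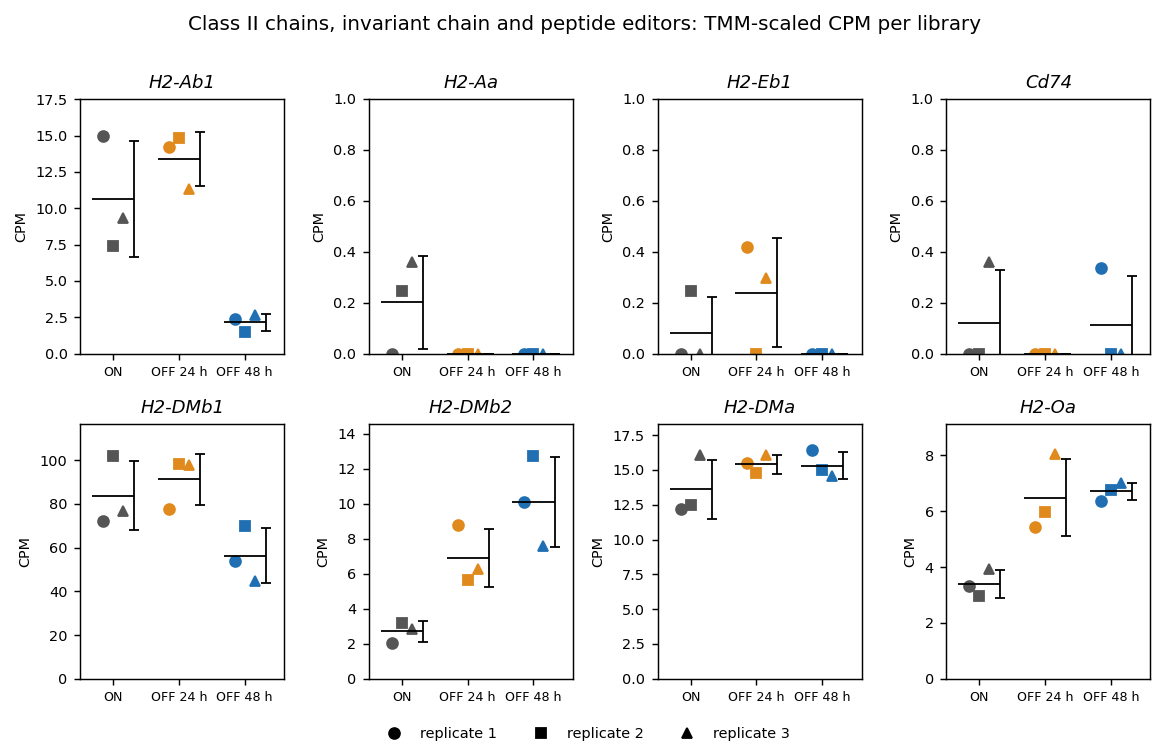
TMM-scaled CPM (y axes, linear from 0) of the 4 class II genes (top) and of 4 genes that edit class II peptides or that editing (bottom) in each library, by group, with a line at the mean and a bar of ± SD (n = 3), cut at 0. H2-Ab1 is lowest at 48 h, the other 3 class II genes stay under 1 CPM, and H2-DMb1 is lower but H2-DMb2 and H2-Oa higher at 48 h than in ON.

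Genes that load or replace class II peptides moved in different directions. Of 8 tested accessory genes and endosomal proteases, 3 rose and none fell at 24 h, and 4 rose and 3 fell at 48 h, with a median log2 fold change of 0.22 at 24 h and 0.49 at 48 h. Of all tested genes 17.8% rose and 17.4% fell at 24 h, and 23.4% rose and 23.9% fell at 48 h. H2-DMb1, a beta chain of the editor H2-DM, was 56.2 ± 12.6 CPM in OFF48 and 83.7 ± 15.8 CPM in ON, a fall by 0.63 ± 0.16 on the log2 scale (edgeR adjusted p = 0.004). Its neighbour H2-DMb2, the other beta chain of H2-DM, rose at both times, to 6.89 ± 1.66 CPM in OFF24 and 10.1 ± 2.58 CPM in OFF48, against 2.70 ± 0.594 CPM in ON. Its log2 fold changes were 1.32 at 24 h (edgeR adjusted p = 0.00507) and 1.82 at 48 h (edgeR adjusted p = 0.000136), but its last 400 bases match 45 other genes in part, so its count is uncertain. The alpha chain H2-DMa, at 12.2 to 16.4 CPM over all libraries, did not pass at 24 h or 48 h. H2-Oa, a chain of the H2-DM inhibitor H2-O, rose at 24 h (log2 0.96, edgeR adjusted p = 0.0179) and at 48 h (log2 0.99, edgeR adjusted p = 0.0127). Its last 400 bases match the gene BC051537 over 234 bases at 100% identity, so its count is uncertain too.

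The proteases of the endosome split in the same way. Ctss, the protease best known for trimming the invariant chain in antigen-presenting cells, fell to 5.81 ± 1.84 CPM in OFF48, against 11.3 ± 0.116 CPM in ON (log2 -0.99 ± 0.26, edgeR adjusted p = 0.00447). Ctsl, which can do so in thymic epithelium, fell by 0.63 at 48 h (edgeR adjusted p = 0.000954). Ctsh, an aminopeptidase, rose to 16.0 ± 5.26 CPM in OFF48, against 4.19 ± 1.72 CPM in ON (log2 1.79 ± 0.31, edgeR adjusted p = 9.51e-05). Ctsb, a broad lysosomal protease, rose at 24 h (log2 0.53) and 48 h (log2 0.79), with edgeR adjusted p-values of 0.000724 and 5.64e-06.

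Among 12 genes of class I peptide loading and trimming, 1 rose and 2 fell at 24 h, and 1 rose and 5 fell at 48 h, with median log2 fold changes of -0.16 and -0.24. The share that passed in either direction at 48 h, 6 of 12, was near the 47.4% of all tested genes. At 24 h 35.3% of all tested genes passed. Lap3, a cytosolic leucine aminopeptidase, had 15.9, 18.2 and 16.4 CPM at 24 h and 15.8, 18.0 and 13.7 CPM at 48 h, against 42.6, 46.9 and 42.2 CPM in ON. It fell at 24 h (log2 -1.38) and at 48 h (log2 -1.51), with edgeR adjusted p-values of 1.05e-06 and 2.18e-07. Thop1, a cytosolic oligopeptidase that destroys peptides, fell at 48 h (log2 -1.53 ± 0.40, edgeR adjusted p = 0.004), as did Blmh, bleomycin hydrolase (log2 -0.65, edgeR adjusted p = 0.000287). The chaperone Calr, calreticulin of the loading complex, was 478 ± 66.7 CPM in OFF48 and 634 ± 107 CPM in ON (log2 -0.42, edgeR adjusted p = 0.00915). Pdia3, the ERp57 of the loading complex, named after its values were seen, fell at both times (log2 -0.65 and -0.66, edgeR adjusted p = 0.0171 and 0.0123). Npepps, the puromycin-sensitive aminopeptidase, rose at 24 h (log2 0.55, edgeR adjusted p = 0.000466) and was at 0.10 at 48 h (edgeR adjusted p = 0.479). Tapbpl, the tapasin-related editor TAPBPR, rose at 48 h (log2 1.05 ± 0.18, edgeR adjusted p = 0.000135), though its last 400 bases match 110 other genes in part.

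Of the 5 immunoproteasome and PA28 genes, Psmb9 was the only one to pass against ON, beside 35.3% and 47.4% of all tested genes, with a rise at 24 h (log2 0.62 ± 0.18, edgeR adjusted p = 0.014) and at 48 h (log2 0.58 ± 0.19, edgeR adjusted p = 0.0167). Psmb9, a catalytic subunit, overlaps the start of Tap1 on the opposite strand in the annotation. Psmb8, another catalytic subunit, was 40.0 ± 8.69 CPM in OFF48 and 51.6 ± 13.2 CPM in ON and did not pass (log2 -0.31, edgeR adjusted p = 0.172).

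Of 10 tested genes for other class I chains, 2 rose at 24 h, and 1 rose and 1 fell at 48 h, beside 35.3% and 47.4% of all tested genes that passed. H2-T22 and H2-T9 had the same counts in all 9 libraries, and H2-L repeats H2-D1, so the 10 are not all separate measurements. Cd1d1, a class I-like molecule that shows lipids to NKT cells, had 35.1, 40.5 and 36.3 CPM at 24 h and 37.2, 27.7 and 41.1 CPM at 48 h, against 18.9, 11.1 and 14.3 CPM in ON. It rose by 1.34 ± 0.19 at 24 h and 1.31 ± 0.19 at 48 h on the log2 scale (edgeR adjusted p = 1.88e-05 and 1.52e-05). H2-Q10, a secreted class I molecule made mostly by liver, had 0.418 ± 0.365 CPM in OFF48 and 6.41 ± 2.77 CPM in ON (log2 -3.59 ± 0.57, edgeR adjusted p = 3.5e-05). At 24 h its log2 fold change was -0.28 (edgeR adjusted p = 0.551), so that H2-Q10, like H2-K1, was low at 48 h, with only 4 counts there. Fcgrt, the neonatal Fc receptor, rose at 24 h (log2 0.81, edgeR adjusted p = 0.00973). H2-T23, the chain of Qa-1, did not pass at either time, and H2-Q7 had 20 counts in all and was not tested.

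**Figure D5:**
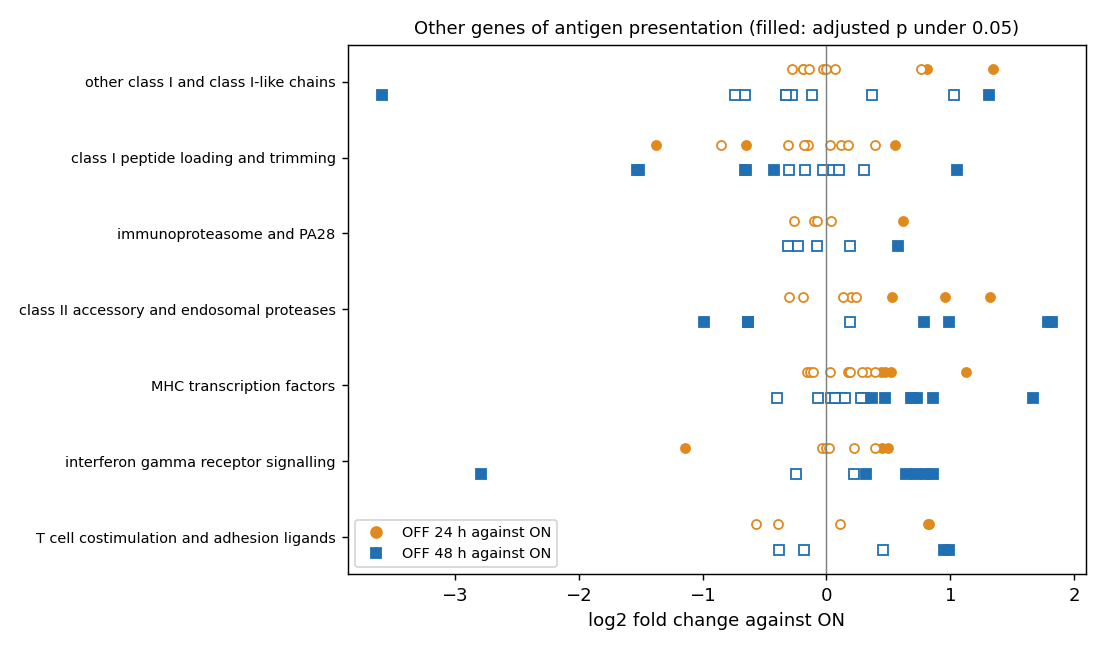
Log2 fold change against ON (x axis) of each tested gene of 7 further groups of antigen presentation genes, at 24 h (circles) and 48 h (squares), filled where the adjusted p was under 0.05. The lowest squares are H2-Q10 (-3.59) and Socs1 (-2.79), and none of the filled symbols among the transcription factors lies below 0.

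The transcription factors of the MHC genes that passed against ON all rose. Of 15 tested, 4 rose and 0 fell at 24 h, and 7 rose and 0 fell at 48 h, with median log2 fold changes of 0.19 and 0.30. Among all tested genes 17.8% rose and 17.4% fell at 24 h, and 23.4% rose and 23.9% fell at 48 h. In either direction 35.3% and 47.4% of all tested genes passed, so the share of these factors that passed was not above that of all genes. Irf8, a factor of myeloid lineages, had 17.6, 25.7 and 20.6 CPM at 24 h and 28.2, 38.2 and 30.0 CPM at 48 h, against 5.36, 12.8 and 11.5 CPM in ON. It rose by 1.13 ± 0.25 and 1.67 ± 0.24 on the log2 scale (edgeR adjusted p = 0.00184 and 1.78e-05). At 48 h there were rises of Rela, a subunit of NF-kB (log2 0.73, edgeR adjusted p = 7.96e-05), and of Spi1, the myeloid factor PU.1 (log2 0.69, edgeR adjusted p = 7.96e-05). Irf2 rose at both times (log2 0.47 and 0.68), while Irf1, an activator of class I genes, rose at 24 h (log2 0.52, edgeR adjusted p = 0.0054) and was at 0.28 at 48 h (edgeR adjusted p = 0.11). Creb1, which binds the cAMP response element, rose at 24 h (log2 0.44, edgeR adjusted p = 0.00341). Rfx5, which binds the X box of class II promoters, did not pass (log2 -0.40 at 48 h, edgeR adjusted p = 0.151).

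Ciita, the co-activator of class II genes, had 0 counts in every library, with upper ends of the same exact 95% Poisson interval, over the summed libraries of a group, of 0.342 CPM in ON, 0.413 CPM in OFF24 and 0.476 CPM in OFF48. Nlrc5, its class I counterpart, had 3 counts over all 9 libraries. Neither could be tested.

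In interferon gamma receptor signalling, 2 of 8 tested genes rose and 1 fell at 24 h, and 5 rose and 1 fell at 48 h, beside 35.3% and 47.4% of all tested genes that passed in either direction. The gene that fell was Socs1, a feedback inhibitor of JAK kinases, with 6.01 ± 1.23 CPM in OFF24 and 1.70 ± 0.837 CPM in OFF48, against 13.5 ± 3.00 CPM in ON. Its log2 fold changes were -1.14 ± 0.26 at 24 h and -2.79 ± 0.34 at 48 h (edgeR adjusted p = 0.00227 and 1.96e-06). The receptor chain Ifngr1 rose at 24 h (log2 0.45) and at 48 h, to 694 ± 69.9 CPM in OFF48 against 444 ± 43.3 CPM in ON (log2 0.64, edgeR adjusted p = 0.000116). Jak2, a kinase of the receptor, rose at 48 h (log2 0.80, edgeR adjusted p = 0.000241), as did Jak1 (log2 0.32, edgeR adjusted p = 0.0434). The phosphatase Ptpn6 rose at both times (log2 0.50 and 0.72).

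Among 12 T cell costimulation and adhesion ligands, Cd40 had 0 counts in all libraries, Cd80 had 4 and Cd86 had 5, and these 3 were not tested. Of the 5 tested, 1 rose at 24 h and 2 at 48 h, with none falling. Among all tested genes 17.8% and 23.4% rose, and 35.3% and 47.4% passed in either direction. Vsir, the inhibitory ligand VISTA, had 242 ± 12.5 CPM in OFF24 and 270 ± 12.6 CPM in OFF48, against 136 ± 9.02 CPM in ON (log2 0.83 and 0.99, edgeR adjusted p = 3.26e-06 and 1.46e-07). Icam2, an adhesion ligand of LFA-1, rose at 48 h (log2 0.95, edgeR adjusted p = 3.31e-05).

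Markers of cells that normally carry class II were measured beside these genes. The 8 B cell markers summed to 0.491 to 3.94 CPM in ON, 5.02 to 7.53 CPM in OFF24 and 0.750 to 9.33 CPM in OFF48, with Blk at 0 in all libraries. The 10 dendritic cell markers summed to 232 to 339 CPM in ON, 322 to 407 CPM in OFF24 and 463 to 604 CPM in OFF48, nearly all of it Cst3, which many cells make, with Cd209a and Ccr7 at 0. The 10 macrophage markers summed to 30.9 to 38.3 CPM in ON, 61.8 to 71.5 CPM in OFF24 and 55.5 to 78.4 CPM in OFF48, with C1qb, C1qc, Vsig4 and Marco at 0. Of the 10 dendritic markers only Cst3 had enough counts to be tested. The 3 macrophage markers tested were Adgre1 and Csf1r, which rose at 48 h (log2 1.35 and 1.65), and Cd68. Cd68 did not pass (log2 0.36, edgeR adjusted p = 0.145). Every OFF48 library thus had a higher sum of both lists, and a lower H2-Ab1 level, than every ON library. These sums rest on few genes and do not show that such cells were present. Any part of such cells in the H2-Ab1 result was not tested. The 12 myeloid progenitor markers summed to 3300 to 3560 CPM in ON, 4950 to 5390 CPM in OFF24 and 5740 to 6700 CPM in OFF48, and none was at 0 in all libraries. Prtn3, Elane and Mpo had means of 1740, 1020 and 759 CPM in OFF48, against 711, 379 and 69.1 CPM in ON. Of the 11 tested, 7 rose at 48 h, 3 did not pass and 1, Cd34, fell (log2 -0.35, edgeR adjusted p = 0.0225). Among all tested genes 23.4% rose and 23.9% fell at 48 h. Each of the sums for T and NK cells, erythroid cells, and hepatocytes and stroma stayed under 7 CPM in every library. Mouse Flt3 had 47 counts in all, and its 3' counts check neither the transgene nor its loss.

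The genes whose levels most resembled those of the class I and class II genes were sought by Pearson's r over the 9 libraries among 7937 genes with a mean of at least 10 CPM, as a description. For the mean profile of the 6 class I genes they were LOC102634709 (r = 0.951), Gpx4 (0.931), Rmnd1 (0.931), Cebpg (0.919) and Eif3h (0.914). For H2-Ab1 they were Slc2a1 (0.990), Prelid1 (0.990), Eno1b (0.978), Pgam1 (0.978) and Mthfd1l (0.977). These points share the 3 groups and the libraries' depth. Among the members themselves H2-Ab1 had r = 0.838 with H2-K1 and -0.865 with Tapbp, whereas H2-K1 and H2-D1 had r = 0.577. Between class I genes r ran from -0.708 (H2-K1 with Tapbp) to 0.789 (B2m with Tapbp). A gene close to their mean profile therefore need not resemble any single class I gene.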

How the data were processed

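9 QuantSeq 3' mRNA libraries of 1 cell line were analysed, with 3 each for ON, OFF24 and OFF48, grouped by sample titles. The authors deposited read counts per gene symbol as whole numbers, not normalised, as the values show. They also deposited a table of log2 values, normalised with voom and limma per its name, which holds 7 of the 10 members and served only as an alternative. The submitters' processing notes list, with no roles, the build mm10, limma 3.42.2 in R 3.6.1, featureCounts, Subread 1.5.0-p3, HISAT2 2.0.4, cutadapt 1.5, FastQC 0.11.2 and bcl2fastq 2.17.1.14. The annotation and strand setting are not stated there.

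The main test was that of edgeR 4.0.16 under R 4.3.3 (filterByExpr by group, TMM, robust quasi-likelihood fit of 1 mean per group to all 9 libraries, 6 residual degrees of freedom). P-values were adjusted by Benjamini-Hochberg over 10215 genes, with a threshold of 0.05. The SE is the log2 fold change over the square root of the F statistic. Alternatives used other scalings, filters, DESeq2 1.42.0, limma 3.58.1 (voom), each library left out, and a block. Between replicates, chi-square over its degrees of freedom was 1.99 to 6.99, above counting noise.

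Deviations of same-numbered libraries from their group means correlated at 0.115, 0.406 and 0.189 between ON and OFF48, but from -0.0219 to 0.203 in pairs with OFF24, and no label ties the numbers to a shared culture or day. Members and lists were chosen with earlier results of these data known. Named are all members, up to 6 genes per pathway list that passed against ON, by smallest p, and 16 fixed genes whatever their result, of which not every one is reported here. Log2(CPM + 1) was used for r. H2-K2, H2-Ea and Ifi30 were among listed symbols not analysed here.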

Additional observations from a re-analysis of the deposited data

Results flagged for a closer look

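H2-K1 behaved differently at the 2 times after doxycycline withdrawal. Its OFF48 libraries averaged 221 ± 27.2 CPM and its OFF24 libraries 381 ± 41.7 CPM (SD, n = 3), a log2 fold change of -0.79 (edgeR adjusted p = 5.02e-05), and the change against ON was therefore larger at 48 h than at 24 h.

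Tapbp differed between the times in the other direction, with 156 ± 29.9 CPM in OFF48 and 93.2 ± 22.4 CPM in OFF24 and a log2 fold change of 0.72 (edgeR adjusted p = 0.00386). H2-Ab1 differed most of the 7 tested genes, with 2.16 ± 0.586 CPM in OFF48 and 13.4 ± 1.85 CPM in OFF24 and a log2 fold change of -2.51 (edgeR adjusted p = 4.98e-05). In all 3 cases the test was of the difference between the OFF48 and OFF24 libraries itself.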

How the results depend on the processing

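The 48 h calls of H2-K1, Tapbp and H2-Ab1 kept direction and threshold under all 20 alternatives, against ON and against OFF24. Against ON their log2 fold changes ran from -1.11 to -0.92, 0.54 to 0.78 and -2.41 to -1.81, with adjusted p-values up to 0.00048, 0.0206 and 0.000819. The count of members that changed at 24 h, 0 of 7, was 1 with no filter on low counts (H2-K1, adjusted p = 0.0452) and 1 in a fit to the groups compared alone (H2-K1, adjusted p = 0.0446). It ran from 0 to 1 when a library was left out, the 1 being H2-K1 without OFF48 replicate 3 (adjusted p = 0.0442), and was 2 (H2-K1 and Tap2) with ON replicate 2 and OFF48 replicate 2 left out together. At 48 h against ON it ran from 3 to 4, with B2m added. The cause was not tested.

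The correlation of deviations was above 0.1 in every same-numbered pair of ON with OFF48 libraries. It was not above 0.1 in every such pair with OFF24 libraries. Yet ON replicate 1 correlated better with OFF48 replicate 3 (0.126) than with its own number there (0.115). ON replicate 3 likewise correlated slightly better with OFF48 replicate 1 (0.191) than with its own number (0.189). With a replicate block the members changed were 2 at 24 h (H2-K1 and Tap2), 4 at 48 h against ON (B2m added, no other call changed) and 5 between 48 h and 24 h (B2m and Tap2 added), and 4200, 5189 and 2701 genes changed in all, against 3603, 4841 and 2160.

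Sign changes occurred in fold changes near 0 that were never called. At 24 h upper quartile scaling gave 0.01 for H2-D1 and 0.01 for Tapbp, no filter gave -0.02 for B2m and -0.01 for Tap1, and leaving out both replicates 2 gave -0.05 for Tap1 and 0.04 for Tapbp. Leaving out single libraries gave ranges at 24 h of -0.10 to 0.22 (B2m), -0.05 to 0.07 (Tap1), -0.26 to 0.08 (Tapbp) and -0.12 to 0.01 (H2-D1). They were -0.13 to 0.01 for H2-D1 between 48 h and 24 h, and -0.37 to 0.23 for Tap2 at 48 h against ON. Depth limits H2-Aa, H2-Eb1, Cd74 and Ciita, for which only levels above the count limits could have been seen.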
